A study of Mus musculus with 6 samples.

Results

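H3K27ac, the acetylated form of lysine 27 on histone H3 that marks active promoters and enhancers, was examined at the genes of 10 photoreceptor transcription factors, Crx, Nrl, Nr2e3, Otx2, Rorb, Neurod1, Thrb, Mef2d, Prdm1 and Rxrg. The 10 genes were listed by name, out of 21938 protein-coding genes of the GENCODE annotation of the mouse genome (GRCm38). A region belonged to a gene if it lay within 2.5 kb of any of its transcription start sites (TSS) or in the gene body with 50 kb on either side. Regions were the merged peaks of 6 peak lists. By this rule 109 of 39942 regions lay at the 10 loci, namely 33 promoter regions of the genes, 56 TSS-distal regions (over 2.5 kb from any TSS of any gene in the basic set of transcripts) and 20 regions at promoters of neighbouring genes.

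The lists came from ChIP-seq of bulk retina, 1 retina per list, of WT mice that were 3 months old at the first pressure elevation. In the 4xIOP group (n = 3) the intraocular pressure of 1 eye had been held at 30 mmHg for 1 h, 4 times at biweekly intervals, and in the control group (n = 3) the untreated contralateral eye was used. Retinas of both groups were taken at day 2 following the final elevation. The treatment text that all labels share also speaks of dasatinib and vehicle injections, but no label assigns either to a sample. Since both eyes of a mouse are used, control and 4xIOP retinas may come from the same animals, which the labels do not state, and a p-value measures only the spread between these lists.

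In 4 of the 6 lists (control 1 and 2, 4xIOP 1 and 2) the name of the deposited list carries the other group, and only control 3 and 4xIOP 3 carry the group of their label. No sample was moved to another group, and each comparison holds for the groups of GEO's labels only. The lists held 16195 to 36509 peaks, with control 3 the longest and 4xIOP 3 the shortest. No read counts were used, but the fold and p-value of a peak together give the fragments at its summit and in the 10 kb around it (at least 99.99% of peaks of each list could be solved). The genome mean of a list lay between 87.4 and 173 fragments per 10 kb, and the groups are compared by multiples of it, while the fragments given list by list are counts not scaled for depth. In whole retina, fewer photoreceptors and less acetylation per photoreceptor cannot be told apart.

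Photoreceptor identity is set by a small circuit of transcription factors. The homeodomain factors OTX2 and CRX act in rods and cones, RORB and NRL direct precursors to the rod fate, and NR2E3 represses cone genes in rods. NEUROD1, MEF2D and PRDM1 act with them in development or maintenance, whereas the nuclear receptors THRB and RXRG shape the opsin pattern of cones. Rods make up most of the cells of the mouse retina.

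The label of the tissue was compared with marker lists. Promoters of 14 of 16 rod genes carried a peak in all 6 lists, among them Sag (rod arrestin) and Gnat1 (rod transducin). For cone genes this held for 2 of 13 (Gnb3 and Grk1, the latter also a rod gene), while 8 of 13 were marked in at least 1 list (8 in control 3), and neither Opn1sw nor Arr3 was among these. Of 32 genes for transcription factors of other retinal cells 2 were marked in all lists (Rax and Satb1) and 16 in at least 1, of 22 factors of other tissues 0 were marked in any list, and of 10 markers of pigment epithelium 0 were marked in all lists and 1 in control 3 only (Pmel).

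The sequences of 6 windows on which the results turn are given first, in lower case and 5′ to 3′ on the strand of the gene (GRCm38, RefSeq genome sequence). Capitals mark matches on either strand to TAATCC (the homeodomain motif of CRX and OTX2), TGCTGA (a half-site of NRL), AGGTCA (a half-site of nuclear receptors), AAGTCA (NR2E3), CAGATG (an E-box of NEUROD1) or the MEF2 motif. Crx is shown for the CRX motif in its own promoter and Nr2e3 as the gene with the highest local promoter level of the 7 marked in at least 4 lists. Rorb is shown at its first start and at the region found only in control lists, and Mef2d and Prdm1 at regions found in all lists although their annotated promoters were not.
Crx, upstream of the first start (chr7:15879969-15880205, minus strand): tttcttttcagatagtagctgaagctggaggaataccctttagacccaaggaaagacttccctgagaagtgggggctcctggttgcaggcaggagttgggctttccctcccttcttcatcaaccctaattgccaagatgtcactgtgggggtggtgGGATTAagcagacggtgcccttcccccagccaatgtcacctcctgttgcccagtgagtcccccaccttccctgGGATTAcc
Nr2e3, upstream of the start (chr9:59950118-59950329, minus strand): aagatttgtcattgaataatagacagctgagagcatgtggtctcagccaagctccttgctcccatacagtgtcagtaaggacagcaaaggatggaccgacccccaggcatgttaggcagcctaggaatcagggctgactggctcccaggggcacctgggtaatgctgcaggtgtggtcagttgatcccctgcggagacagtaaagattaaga
Rorb, upstream of the first start (chr19:19111197-19111446, minus strand): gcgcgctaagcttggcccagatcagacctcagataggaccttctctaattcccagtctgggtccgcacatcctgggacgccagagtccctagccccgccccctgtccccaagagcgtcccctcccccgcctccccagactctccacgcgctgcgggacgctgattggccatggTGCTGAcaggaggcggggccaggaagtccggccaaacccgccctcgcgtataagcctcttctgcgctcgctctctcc
Rorb, summit of the region at the downstream start (chr19:19000874-19001023, minus strand): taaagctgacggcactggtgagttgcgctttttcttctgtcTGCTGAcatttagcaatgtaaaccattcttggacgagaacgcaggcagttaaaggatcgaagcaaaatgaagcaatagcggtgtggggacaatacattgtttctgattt
Mef2d, summit of the intronic region (chr3:88147571-88147720, plus strand): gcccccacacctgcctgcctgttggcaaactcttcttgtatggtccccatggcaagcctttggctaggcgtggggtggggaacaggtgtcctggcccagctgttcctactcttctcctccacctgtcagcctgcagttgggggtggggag
Prdm1, summit of the upstream region (chr10:44529727-44529876, minus strand): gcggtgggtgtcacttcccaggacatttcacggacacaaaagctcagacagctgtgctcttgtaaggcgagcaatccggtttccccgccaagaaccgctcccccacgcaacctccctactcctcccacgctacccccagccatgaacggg
The Crx window held the CRX motif at 2 places, both on the opposite strand (GGATTA), 81 and 8 bases before the GENCODE start. Rorb had 1 NRL half-site before its first start and 1 at the downstream region, and the other 3 windows held no match to any of the 6 motifs.

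A promoter peak was called at all 10 genes in at least 1 list, and by these calls the genes fell into 3 kinds. The kinds follow the calls and the basic annotation and not the level, as Mef2d and Prdm1 show below. Nrl, Nr2e3, Otx2, Rorb, Neurod1 and Thrb had a promoter peak in 6 of 6 lists and Crx in 5. Mef2d had one in 2 lists (control 3 and 4xIOP 3). Prdm1 and Rxrg had one in control 3 only. Over all protein-coding genes, 39.5% were marked in all 6 lists. At least 1 list marked 57.6% of them.

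At Crx (chr7:15865947-15879968, minus strand), the homeodomain activator of rod and cone genes, the promoter peak with most fragments had 72, 67 and 116 summit fragments in controls 1 to 3. In 4xIOP 2 and 3 it had 82 and 42, and no promoter peak was called in 4xIOP 1. The groups overlapped, with control 3 highest and 4xIOP 3 lowest. Around these summits 1507, 1731 and 3080 fragments lay within 10 kb in the controls, and 1772 and 861 in 4xIOP 2 and 3. The control 3 value lay at -1.20 kb, and the region at the start had 113 fragments there. The missing call in 4xIOP 1 was not an unmarked locus, since a region at -3.5 kb (negative is upstream of the first start), by the start of the neighbouring gene Crxos, had 63 summit fragments and 1218 fragments in 10 kb in that list.

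Nrl (chr14:55518978-55524981, minus strand) encodes the leucine zipper factor that directs precursors to the rod fate. Its promoter peak had 64, 68 and 113 fragments at its summit in control and 63, 71 and 44 in 4xIOP 1 to 3. As multiples of the genome mean these were 29.2, 20.1 and 45.8 in control and 31.3, 33.5 and 17.1 in 4xIOP, so control 2 lay next to 4xIOP 3 and control 3 above all others. In control 3 and 4xIOP 2 this maximum lay further into the gene (chr14:55521609-55522438), and the region at the first start had 103 and 66 fragments there. In 10 kb the counts were 1283, 1494 and 2737 in control and 1153, 1402 and 801 in 4xIOP.

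Nr2e3 (chr9:59942771-59960659, minus strand) encodes the nuclear receptor that represses cone genes in rods. Its promoter peak had 74, 93 and 133 fragments at the summit in controls 1 to 3, and 64, 107 and 42 in 4xIOP. Again the groups overlapped. The value of 4xIOP 1 comes from a region at -2.19 kb, since the region at the start was not called there. At Otx2 (chr14:48657677-48673819, minus strand), which acts upstream of Crx, the values were 76, 83 and 120 in control and 58, 84 and 56 in 4xIOP. In 5 of 6 lists the Otx2 maximum lay 6.92 to 7.53 kb into the gene, near the start of shorter transcripts, and only in 4xIOP 1 at the first start, where this internal region was not called.

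Neurod1 (chr2:79452521-79456751, minus strand) encodes a basic helix-loop-helix factor needed to maintain photoreceptors. Its promoter peak had 77, 72 and 108 summit fragments in control and 62, 66 and 58 in 4xIOP. These counts do not overlap, but as multiples of the genome mean control 2 (21.3) lay below the 4xIOP lists (22.6 to 31.1). Thrb (chr14:17660261-18038090, plus strand) encodes the thyroid hormone receptor of M cones and had 64, 69 and 125 in control and 53, 61 and 54 in 4xIOP. Again only the counts were apart, and as multiples control 2 (20.4) lay below each 4xIOP list. Rorb (chr19:18930605-19111196, minus strand) encodes an orphan nuclear receptor that acts upstream of Nrl, and it had the lowest values of the genes marked in all lists, 44, 47 and 86 in control and 37, 39 and 23 in 4xIOP. These Rorb maxima lay at the downstream start in control 1, near it in control 3 and at the first start in the other lists. At the first start alone Rorb had 33, 47 and 70 fragments in control and 37, 39 and 23 in 4xIOP.

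**Figure D1:**
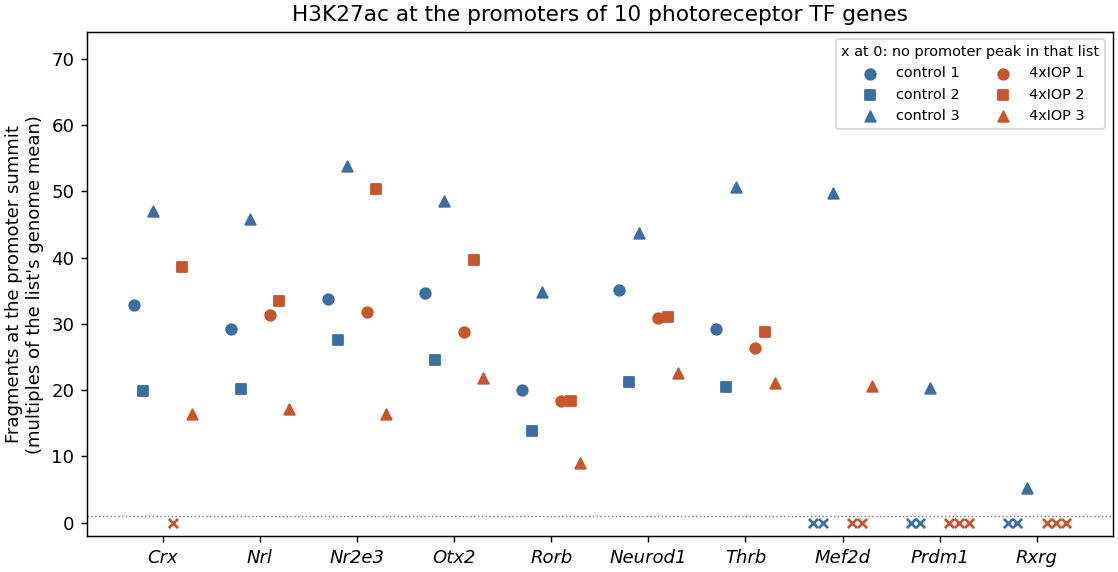
Fragments at the summit of the strongest promoter peak of each gene in each list, as multiples of the genome mean of the list (dotted line at 1), with controls in blue and 4xIOP in orange; a cross at 0 is a list without a promoter peak, which is not a level of 0. The lists of the groups overlap at the 6 genes marked in all lists, and control 3 is the highest list at each gene.

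As multiples of the genome mean, the 6 genes with a promoter peak in all lists had a higher mean in control than in 4xIOP (6 of 6), and the lists of the groups overlapped, as labelled, at each of them (6 of 6). The direction rested on control 3, without which it held at 2 of the 6 genes (Neurod1 and Rorb), and Nrl, for example, had 24.7 in control and 27.3 in 4xIOP. Without 4xIOP 3 it held at 4 of the 6, all except Nrl and Nr2e3. Nr2e3 had 38.4 ± 13.8 (SD, n = 3) in control and 32.9 ± 17.1 (SD, n = 3) in 4xIOP. Otx2 had 35.9 ± 12.1 and 30.1 ± 8.94 (SD, n = 3 each), and Rorb 22.9 ± 10.8 and 15.2 ± 5.44. The difference at each of the 6 genes was smaller than the SD of the control lists, but those of Rorb, Neurod1 (33.4 and 28.2 ± 4.83) and Thrb (33.4 and 25.4 ± 3.94) exceeded the SD of the 4xIOP lists. Summit fragments were lower in 4xIOP over all regions too, with a median log2 difference of -0.25 over the 10528 regions compared, so the shared direction of the 6 genes is read against that shift below. Lists in which a promoter missed its call can be included through the highest 10 kb count of any region within 10 kb of a start. On that measure Crx had 16.1 ± 6.73 times the genome mean in control and 13.2 ± 6.53 in 4xIOP, and Otx2 18.4 ± 6.34 and 12.5 ± 3.43 (SD, n = 3 each). The control mean was higher at 8 of the 8 genes with such a value in all lists, and the lists of the groups overlapped at all 8. Fragments in 10 kb were lower in 4xIOP over all regions too, with a median log2 difference of -0.16 over 10529 regions. The 8 of 8 is thus not read as a trait of these genes. Without control 3 the control mean was higher at 4 of the 8 (not at Crx, Nrl, Nr2e3 and Thrb), and without 4xIOP 3 at 5.

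At 5 of the genes the local level was far above that of the median gene. In the 10 kb around the promoter summit Crx, Nrl, Nr2e3, Otx2 and Neurod1 held on average 14.8, 12.8, 15.5, 15.1 and 11.3 times the genome mean. The median over the 10294 protein-coding genes marked in at least 4 lists was 2.30. Such levels were not particular to the transcription factor genes, since the rod genes had a median of 10.5 times (Sag 15.4) and the 2 marked cone genes one of 9.75. By this level Nr2e3 was the 16th, Otx2 the 19th, Crx the 20th, Nrl the 42nd and Neurod1 the 70th of these genes. Thrb, at 7.92 times, was the 261st and Rorb, at 5.20 times, the 852nd. The range over lists was wide, from 6.38 to 23.3 times for Crx and from 9.65 to 23.0 times for Otx2, so the order of the first 3 is within the spread of the lists.

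The deposited fold did not show this. Fold divides the summit by the local background, which here comes from the same library, so a broad acetylated domain lowers it. At Crx the fold was 1.96 to 2.48 in the 5 lists, at a mean percentile of 0.899 within the lists, whereas its summit fragments were at the mean percentile of 95.1. Otx2 had the mean percentiles 1.61 by fold and 97.4 by fragments, and Nr2e3 had 2.44 and 96.6. For Nrl they were 2.53 and 95.1, and for Neurod1 8.19 and 96.7. Thrb and Rorb were less extreme, with fold percentiles of 35.1 and 31.2. The median gene had 74.6 by fold and 59.1 by fragments.

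A threshold chosen after these values were seen counts the combination. A promoter peak at or below the 10th percentile of fold and at or above the 90th of fragments, in at least 4 lists, was found at 35 of 10294 genes (0.34%) and at 5 of the 7 photoreceptor transcription factor genes marked in at least 4 lists. Those were Crx, Nrl, Nr2e3, Otx2 and Neurod1. The 35 genes also held Crxos, whose start is next to that of Crx, the photoreceptor genes Aipl1, Rbp3 and Rd3, and 5 predicted genes, Gm10717 to Gm10721, at 37.6 to 54.7 times the genome mean. Gm10717 and Gm10718 had the same values, so reads there may not belong to 1 gene.

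**Figure D2:**
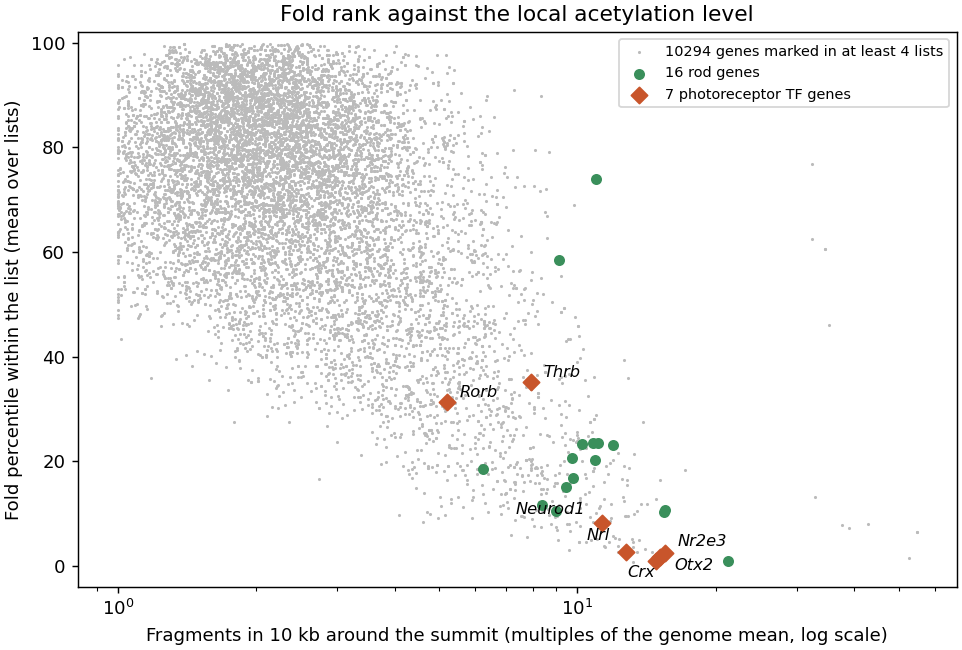
Mean percentile of the promoter fold within the lists against the fragments in the 10 kb around the summit, as multiples of the genome mean on a log axis, for 10294 genes (grey), 16 rod genes (green) and 7 photoreceptor transcription factor genes (orange). Fold percentile falls as the local level rises, and Crx, Nrl, Nr2e3, Otx2 and Neurod1 lie at the lower right, between 11.3 and 15.5 times the genome mean.

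Mef2d (chr3:88142372-88172086, plus strand), a MADS-box factor that binds with CRX at photoreceptor genes, had comparable values in an intron. The intronic region chr3:88146912-88147850, 5.27 kb from the first start and singled out after its values were seen, was called in 6 of 6 lists with 82, 94 and 138 summit fragments in control and 70, 93 and 56 in 4xIOP. Its 10 kb counts were 1733, 2120 and 3363 in control and 1440, 1537 and 1356 in 4xIOP. In the 5 lists with a Crx promoter peak these summits exceeded that of Crx in 5, and the 10 kb counts exceeded those of Crx in 4. At the annotated promoter, peaks were called in control 3 (123 fragments) and 4xIOP 3 (53 fragments, further into the gene) only. Within 10 kb of the Mef2d starts the highest local level was 19.6 ± 7.13 times the genome mean in control and 14.9 ± 3.85 in 4xIOP (SD, n = 3 each), and the lists overlapped.

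Prdm1 (chr10:44437177-44528501, minus strand) encodes a zinc finger repressor that steadies the photoreceptor fate against the bipolar fate. Its promoter, by the basic annotation, was called in control 3 alone, with 50 fragments. The region chr10:44529589-44530169, at -71.1 kb from the first basic start, was called in 6 of 6 lists, with 40, 24 and 51 fragments in control and 23, 33 and 21 in 4xIOP. It lies near the start of a further Prdm1 transcript outside the basic set, and with the starts of all GENCODE transcripts the Prdm1 promoter counted as marked in 6 of 6 lists. A region at -6.28 kb from the basic start was called in 5 lists, with 22 to 73 fragments. Rxrg (chr1:167598384-167639623, plus strand), the cone retinoid receptor, had 1 region at its locus, called in control 3 with 13 fragments at a local background no higher than the genome mean.

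**Figure D3:**
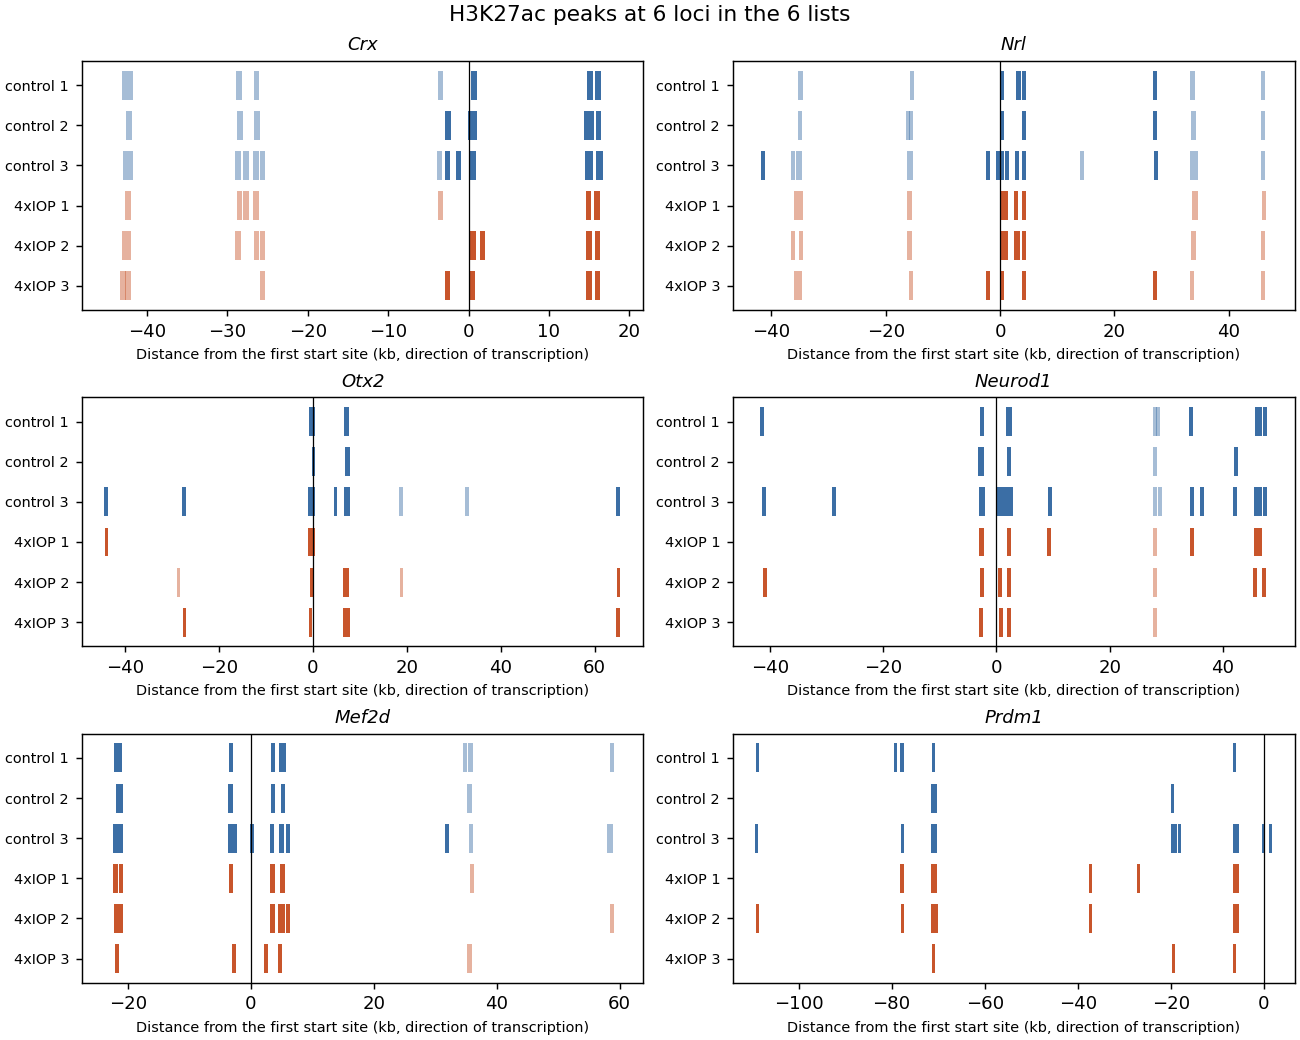
Peaks at 6 loci in the 6 lists by distance from the first start site in kb (negative is upstream), with controls in blue, 4xIOP in orange and pale bars for peaks at promoters of other genes; short peaks are drawn wider than they are so that they can be seen. Peaks lie near the start of Crx, Nrl, Otx2 and Neurod1, inside Mef2d at 5.27 kb, and at -71.1 kb from the basic start of Prdm1.

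Of the 109 regions 19 were called in all 6 lists (7 promoter, 6 distal and 6 at promoters of other genes) and 37 in 1 list. Of these 37, 25 were in control 3, which is the longest list, so that count is not read as a trait of these loci. Over all regions, 26.4% were in all 6 lists and 37.4% in 1. Crx had 12 regions, Nrl 14, Nr2e3 7, Otx2 9, Rorb 11, Neurod1 15, Thrb 14, Mef2d 12, Prdm1 14 and Rxrg 1. Distal elements were spread unevenly, from 12 at Prdm1, 11 at Thrb and 9 at Neurod1 to 2 at Crx and 0 at Rxrg.

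Both distal regions of Crx, 14.9 and 16.1 kb from its first start and just past its end, were called in 6 of 6 lists. The farther one (chr7:15863192-15864131) had 60, 60 and 112 fragments in control and 50, 62 and 45 in 4xIOP. As at the promoter, control 3 was highest and 4xIOP 3 lowest. Nrl had 1 such region over its last exons (chr14:55520533-55521147), with 64, 67 and 135 fragments in control and 67, 70 and 31 in 4xIOP. Mef2d had 2, the intronic one and one at -21.8 kb in the body of Iqgap3 (chr3:88119908-88121635), which had 29, 26 and 55 fragments in control and 40, 40 and 20 in 4xIOP. Here 4xIOP 1 and 2 lay above controls 1 and 2, but control 3 was the highest list. Prdm1 had 1, at -71.1 kb, given above.

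At Neurod1, 6 of the 9 distal regions formed a group 34.5 to 47.3 kb downstream, inside the neighbouring gene Cerkl. The region called in most lists (chr2:79410650-79411348) had 55 and 77 fragments in controls 1 and 3 and 58 and 53 in 4xIOP 1 and 2, and was not called in control 2 and 4xIOP 3. Its 10 kb counts of 898 to 1649 came near those of the Neurod1 promoter, 977 to 1997. At Thrb, intronic regions 91.4 and 311 kb from the first start were called in 5 lists each, all except 4xIOP 3, with 27 to 43 and 32 to 41 fragments. At Nr2e3 the distal region found most often lay at -36.3 kb in Thsd4 and was called in 3 lists (23 to 29 fragments). At Otx2 it lay 64.9 kb downstream of the first start and was called in 3 lists (19 to 31 fragments), and at Rorb it was intronic, 52.4 kb from the first start, in 2 lists (19 and 24 fragments).

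The number of distal regions called differed more between lists than between groups. It was 26, 17 and 47 in controls 1 to 3 and 24, 23 and 13 in 4xIOP 1 to 3, or 30 ± 15.4 and 20 ± 6.08 (SD, n = 3 each). The difference of -10 (4xIOP minus control) rested on control 3, without which it was -0.83. With lists of equal length its direction turned, with means of 12 in control and 16 in 4xIOP. With lists of full length, the share of the 56 distal regions called was 46.4%, 30.4% and 83.9% in control and 42.9%, 41.1% and 23.2% in 4xIOP. All 19172 distal regions of the genome gave 34.3%, 28.4% and 82.6% in control and 30.4%, 36.1% and 17.6% in 4xIOP. With all lists, distal regions at the 10 loci were called more often than distal regions in general in 6 of 6 lists, by 12.2, 1.97 and 1.29 percentage points in control and 12.4, 5.00 and 5.59 in 4xIOP. With this background taken off, the groups stood at 5.14 ± 6.08 and 7.68 ± 4.13 points (SD, n = 3 each), and their lists overlapped. The excess was not tested, and its mean in control turned to -2.09 without control 3, to -1.66 at a -log10 q of at least 5 and to -2.54 with equally long lists, where 4xIOP had 1.26, 2.87 and 6.59.

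**Figure D4:**
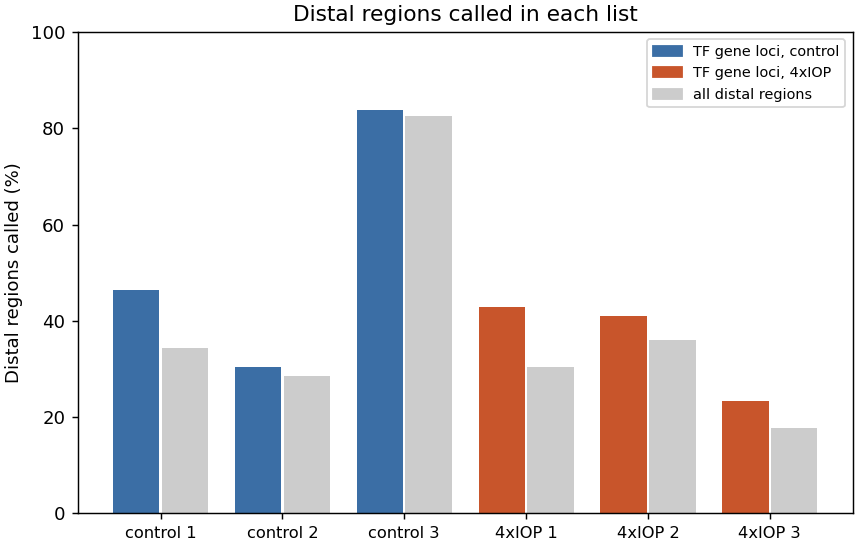
Percent of distal regions called in each list, at the 10 loci (blue for control, orange for 4xIOP, of 56 regions) and over the genome (grey, of 19172 regions). Coloured and grey bars are both highest in control 3 (83.9% and 82.6%) and both lowest in 4xIOP 3 (23.2% and 17.6%). They do not move together in every list, since from 4xIOP 1 to 4xIOP 2 the coloured bar falls (42.9% to 41.1%) and the grey bar rises (30.4% to 36.1%).

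Promoters marked per list, of 10, were 7, 7 and 10 in control and 6, 7 and 8 in 4xIOP, or 8 ± 1.73 and 7 ± 1 (SD, n = 3 each). Without control 3 the mean was 7 in both groups. With lists of equal length the means were 6.67 in control and 7 in 4xIOP, and at a -log10 q of at least 5 they were 7.33 and 5. Of all protein-coding genes 48.6%, 46.2% and 56.9% were marked in control and 47.4%, 45.7% and 44.6% in 4xIOP. Only 1 of the 109 regions was called in all control and no 4xIOP list, and 0 in all 4xIOP and no control list. Over all regions the percentages were 1.05% and 0.015%. The region is at the downstream start of Rorb, 110 kb into the gene (chr19:19000731-19001122), and had 44, 34 and 60 fragments in the controls. Its fold percentiles there were 20.4, 6.77 and 3.17. No region was exclusive to control when only peaks with a -log10 q of at least 5 were kept, nor when each list was cut to its 16195 strongest peaks. The locus was not bare in 4xIOP, since the next promoter region (chr19:19003610-19004348) was called in 4xIOP 2 with 27 fragments, and a distal region beside it (chr19:19005556-19005910) in 4xIOP 3 with 22.

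The groups were tested where all 6 lists had a peak. Each region was ranked within its list by its highest fold, expressed as a normal score, and limma with Benjamini-Hochberg adjustment was run over all 10529 such regions. Adjusted p under 0.05 was reached by 0 regions (0%), higher or lower in 4xIOP, and an unadjusted p under 0.05 by 334 (3.17%). At the 10 loci 19 regions were in the fit. Of these 12 had a higher and 7 a lower score in 4xIOP, with a median difference of 0.12 against 0.01 over all regions.

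Of the 19 regions 1 had an unadjusted p under 0.05, the distal region 14.9 kb from the Crx start (chr7:15864469-15865507). It had 51, 48 and 88 fragments in control and 56, 59 and 37 in 4xIOP. The mean score was -2.29 in control and -1.62 in 4xIOP, a difference of 0.66 ± 0.30 (SE), with a limma p of 0.0393 and an adjusted p of 0.9999. By log2 summit fragments the difference of the same region was -0.03 ± 0.46 (SE), which is 0.23 above the median of all regions on that scale.

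No promoter region in the fit had an unadjusted p under 0.05. On the fold rank the Neurod1 region at -2.91 kb was higher in 4xIOP by 0.39 ± 0.32 (SE), the largest difference at the genes' own promoters. Otx2 was higher in 4xIOP by 0.37 ± 0.34 (SE), the Neurod1 exon region by 0.35 ± 0.30, Nrl by 0.26 ± 0.36 and Rorb by 0.12 ± 0.37, and Thrb differed by -0.08 ± 0.33. The Otx2 region joins separate peaks that only 4xIOP 2 bridges. Control 2 had its peak from -0.095 to 0.243 kb and 4xIOP 3 from -0.679 to -0.275 kb, so the Otx2 difference compares unlike peaks. Smallest and largest unadjusted limma p over the 19 regions were 0.0393 and 0.968, and the smallest adjusted p was 0.9999. These values miss the threshold and do not show that the groups were alike, since the SEs of 0.30 to 0.39 were larger than most of the differences.

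By log2 of summit fragments over the genome mean, 18 of the 19 regions were lower in 4xIOP, with a median of -0.27 beside -0.25 over all regions in that fit. Set against that shift, 12 of the 19 lay below it. Of the 19, the number lower in 4xIOP went from 18 to 6 without control 3 and to 10 without 4xIOP 3. By log2 of fragments in 10 kb the median was -0.28 beside -0.16, and 16 of the 19 lay below the shift. Regions close to each other, such as those distal to Crx (-0.27 and -0.28), share fragments in 10 kb, so the 19 are not independent. On that scale 18 of the 19 were lower in 4xIOP, 10 without control 3 and 9 without 4xIOP 3. Otx2 differed there by -0.37 ± 0.36 (SE) and Rorb by -0.36 ± 0.33. No region of the 19 reached an unadjusted p under 0.05 with limma on either scale. Over all regions only 8 of 10528 did so by summit fragments and 6 of 10529 by 10 kb fragments. The lack of such regions therefore does not set these loci apart. The region upstream of Mef2d was the exception in sign on both fragment scales, higher in 4xIOP by 0.12 ± 0.46 and by 0.21 ± 0.43.

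**Figure D5:**
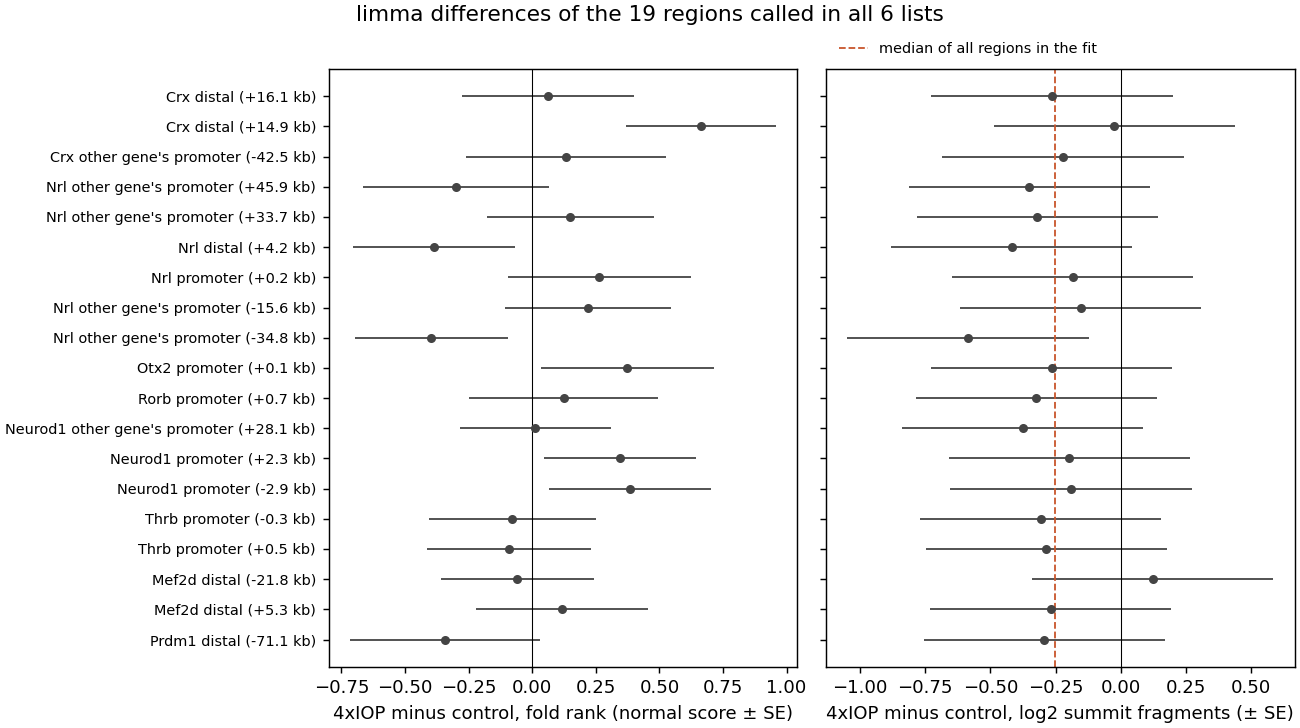
Difference between 4xIOP and control (limma estimate with its SE, n = 3 lists each) for the 19 regions called in all 6 lists, by fold rank as a normal score (left) and by log2 summit fragments (right), with the distance of the summit from the first start of the gene. The dashed line at -0.25 is the median of all regions in the fit, and the estimates on the right gather around it rather than around 0.

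Sequence motifs were counted in 300 bases around each summit, on both strands. The NR2E3 motif AAGTCA was in 16 of 56 distal regions of the 10 loci, or 28.6% (exact 95% interval 17.3 to 42.2), beside 16.0% of all 19172 distal regions. The nuclear receptor half-site AGGTCA was in 26.8% beside 20.8%, and the NRL half-site TGCTGA in 23.2% beside 26.5%. The homeodomain motif TAATCC was in 4 of 56, or 7.14% (1.98 to 17.3), beside 12.1%. In promoter regions AGGTCA was in 1 of 33, or 3.03% beside 13.5%, and TGCTGA in 15.2% beside 17.1%. There TAATCC was in 3 of 33 and CAGATG in 7 of 33, or 9.09% and 21.2% beside 5.78% and 13.5% of all 20770 promoter regions. CAGATG was in 21.4% of the distal regions beside 24.0%. The MEF2 motif was in 0 of 33 promoter and 0 of 56 distal regions, beside 1.40% and 3.12% of all. These windows include neighbouring summits of 1 domain, so they are not independent.

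In the 250 bases before RefSeq starts, 16 promoters matched the 10 genes (10 of 10). TAATCC was in 3 of them, those of Crx, Otx2 and Thrb, beside 6.25% of 32851 promoters of the same length. TGCTGA was in promoters of Mef2d, Neurod1, Otx2 and Rorb, 4 of 16 beside 16.1%. AAGTCA was in 0 of 16 beside 13.1%. Such matches describe the letters of the windows and not the binding of a factor.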

How the data were processed

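H3K27ac was measured by ChIP-seq in 6 retinas (3 control, 3 4xIOP), and the authors deposited 1 narrowPeak list per sample. Each peak has the fold at the summit, a ratio of pile-up to local background made by the authors' peak caller, with its −log10 p-value and −log10 q-value. The deposited score was not used. The lowest −log10 q of any list was 1.31. The submitters' processing notes name STAR 2.7.8a, MACS2, HOMER, edgeR and bedtools 2.29.2, with mm10 as build, without saying which served ChIP-seq. On GRCm38, 0 peaks ended past a chromosome.

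Fragments at a summit were recovered as the whole number that returns the deposited p from fold = (fragments + 1) / (background + 1) under a Poisson model, within 0.001 on the −log10 scale. The smallest background found in a list served as its genome mean, and larger backgrounds were whole counts per 10000 bp (tolerance 0.05) in 100% of peaks. Fragments are not independent molecules, and intervals cover counting error only. Where a region held several peaks in a list, the one with most fragments gave its fragments and the one with the highest fold its fold. Lists were merged into regions, and 1 bp of overlap counted as called. Annotation was GENCODE vM21 basic, and sequences and motifs came from RefSeq (GRCm38.p6). Groups came from GEO's labels. Fits used limma 3.58.1 in R 4.3.3 at an adjusted p of 0.05, and Python 3.11.15 with pandas 2.3.3, SciPy 1.17.1 and pysam 0.24.0. The scripts were tested on simulated data.

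The genes, gene lists and tests were chosen with earlier results of these data known. Named were all 10 genes, for each the promoter and the distal region called in most lists (ties by fold percentile), regions exclusive to a group, regions with an unadjusted p under 0.05, and the first 3 genes of each marker list. Some of the marker genes are not reported here. Whether lists with the same replicate number deviate together was checked as the correlation of their deviations from the group means, which was -0.02, -0.06 and -0.15, so the numbers were not taken to pair the samples. Alternatives were each list left out, stricter or equally long lists, other windows and flanks, other measures, a term for the class of shortest peak length, and a replicate block.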

Additional observations from a re-analysis of the deposited data

How the results depend on the processing

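Of the alternatives, the starts of all GENCODE transcripts, the rank of summit fragments, both measures of 10 kb fragments and the leave-one-out counts of genes and regions by direction were chosen after seeing the data. In each limma alternative 0 regions were higher and 0 lower at an adjusted p under 0.05, among them the replicate block, with 289 at an unadjusted p under 0.05 (251 to 701 with 1 list left out, 6 to 389 in the other alternatives). The difference between the groups (4xIOP minus control) in distal regions called per list went from -10 to -34 with the 2 lists named as labelled and to 4 with lists of equal length, where the difference in percentage points over all distal regions was 9.13. Regions exclusive to control were 0 with lists of equal length and 0 with the stricter q limit. With 1 list left out they were 1 to 4 (4 without control 1, 2 without control 2, 4xIOP 1 or 4xIOP 3), and those exclusive to 4xIOP were 0 to 1 (1 without 4xIOP 3). Genes with the higher control mean were 2 to 6 of 6 by promoter summits and 4 to 8 of 8 by 10 kb level, and regions lower in 4xIOP were 6 to 19 of 19 by summit and 9 to 19 of 19 by 10 kb fragments, with 1 list left out. With windows of 500 bases, distal regions held TAATCC in 17.9% (23.8% of all distal regions), AGGTCA in 42.9% (33.1%), AAGTCA in 44.6% (26.3%) and CAGATG in 44.6% (36.7%), so CAGATG turned from below to above all regions, and promoter regions held CAGATG in 39.4% (22.0%).

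Signs changed at several single regions, but at the Nrl distal region the difference was negative in each setting run. At the nearer Crx distal region it was positive in each fit with 1 list left out (0.56 to 0.77). That Crx region was named for its unadjusted limma p under 0.05 in the same lists, so its steady sign is no further support. Both log2 scales carry a shift of all regions (median -0.25 by summit and -0.16 by 10 kb fragments). With it taken off, the nearer Crx region (0.23), the Nrl promoter (0.068) and the Neurod1 promoter (0.054) kept their sign by summit fragments. By 10 kb fragments with the shift taken off they were negative, at -0.12, -0.14 and -0.16. By log2 summit fragments the difference was -0.26 at the farther Crx distal region, -0.026 at the nearer, -0.18 at the Nrl, -0.26 at the Otx2, -0.32 at the Rorb and -0.20 at the Neurod1 promoter, and 0.12 at the Mef2d distal region. By log2 10 kb fragments these were -0.27, -0.28, -0.30, -0.37, -0.36, -0.31 and 0.21, and by the rank of 10 kb fragments -0.055, -0.055, -0.085, -0.16, -0.16, -0.080 and 0.35, with 0.0070 at the Thrb promoter and 0.16 at the Prdm1 distal region. By the rank of summit fragments the farther Crx distal region had -0.055, Otx2 -0.014, Rorb -0.12 and Mef2d 0.64. With the peak-length class Thrb had 0.094. With 1 list left out the difference ranged from -0.29 to 0.32 at the farther Crx distal region, from -0.034 to 0.61 at the Nrl promoter, from -0.14 to 0.47 at the Rorb promoter, from -0.39 to 0.072 at the Thrb promoter, from -0.14 to 0.061 at the Mef2d distal region and from -0.68 to 0.038 at the Prdm1 distal region. The cause was not tested. Several regions could not be fitted under a setting, namely 7 at a -log10 q of at least 5, 3 with lists of equal length and 1 without 4xIOP 2. The last was the Otx2 promoter region, which is joined only by the peak of 4xIOP 2. Without that list it splits, and each part lacks a peak in 1 of the lists left.

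With 3 lists a group, small differences could not be seen. The lists give called peaks only, so an uncalled region has no level. Fold falls where acetylation is broad, and the lists differ in depth and in the number of peaks.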
